A study of Mus musculus with 6 samples.

Results

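The Schlafen genes Slfn1, Slfn2, Slfn4 and Slfn5 were followed in mouse CD4-positive T cells cultured on plates that carried different receptor ligands. Every probe set whose annotation names 1 of these 4 genes and no other gene was taken. This gave 5 of the 45141 probe sets on the array and 4 of the 17097 genes that could be named: 1 probe set each for Slfn1 (1418612_PM_at), Slfn2 (1450165_PM_at) and Slfn4 (1427102_PM_at), and 2 for Slfn5 (1442640_PM_at and 1458458_PM_at). A further 2 probe sets named Slfn5os, an RNA from the strand opposite Slfn5, together with another gene, and were not used.

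The series held 6 one-colour arrays, 2 cultures for each of 3 plate coatings. The BTNL2 wells were coated with an antibody to CD3 (2 µg/ml), which triggers the T cell receptor, with B7-2.Fc (3 µg/ml), the ligand of the costimulatory receptor CD28, and with rBTNL2.Fc (11 µg/ml), a butyrophilin-like relative of the B7 proteins. The B7-2 wells carried the same anti-CD3 and B7-2.Fc with control IgG, and the anti-CD3 wells carried anti-CD3 with control IgG. The cells of all 3 groups were CD4+CD25- T cells of female C57BL/6 mice, kept in TGF-beta (0.36 ng/ml) and IL-2 (10 ng/ml) and collected after 4 days. No allele, transgene or age is named in the labels, which give the source as spleen in one field and as spleen with lymph nodes in another. The labels do not say that duplicates came from separate animals, so each p-value reflects the spread between cultures, which may be technical.

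The arrays were alike in overall signal. Median intensity was 18.5 to 18.8 on all 6. The 23 nonspecific controls had medians of 3.68 to 4.49, and the highest of them stood at 5.02 to 5.99. Over the log2 values of 17097 genes, each by its probe set of highest mean, duplicates correlated at r = 0.997 to 0.998. Arrays of different groups correlated at 0.974 to 0.987. For Gapdh, the 3′ control over the 5′ control gave 1.40 and 1.43 in BTNL2 wells, with 1.27 to 1.37 elsewhere, and for actin 1.79 and 1.72 in BTNL2 wells, with 1.67 to 1.92 elsewhere. The 18S ribosomal RNA control stood at 683 on 1 anti-CD3 array and at 1308 to 2019 on the other 5. T cell markers were bright: Cd3d, a CD3 chain of the T cell receptor complex, averaged 4436 in BTNL2 wells, 4166 in B7-2 wells and 5336 in anti-CD3 wells.

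Schlafen proteins form a family found in mammals whose members share a core domain, and the longer members, Slfn5, Slfn8, Slfn9 and Slfn14, carry in addition a helicase-like part. The mouse family was first described in developing and activated T cells, where Slfn1 slows growth when it is overproduced, and a mutation of Slfn2 in mice leaves T cells unable to stay quiescent. Several members are also induced by type I interferon in mouse cells, and Slfn4 is best known from macrophages and other myeloid cells.

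RefSeq promoter windows on build GRCm38.p6 were read for all 4 genes, from 250 bases before to 50 bases after the transcript start. The windows of Slfn1, Slfn2 and Slfn4 held a common run of 11 letters, ACTTCCTGGAG, whose first base lay 74, 55 and 73 bases before the start of each gene in that order. The 250 bases before the start are shown for these 3 genes because the run is the longest that all of them have in common. It stands in capitals, the rest in lower case, and all read 5′ to 3′ on the plus strand, at chr11:83116570-83116819 for Slfn1, chr11:83064862-83065111 for Slfn2 and chr11:83174936-83175185 for Slfn4.
Slfn1: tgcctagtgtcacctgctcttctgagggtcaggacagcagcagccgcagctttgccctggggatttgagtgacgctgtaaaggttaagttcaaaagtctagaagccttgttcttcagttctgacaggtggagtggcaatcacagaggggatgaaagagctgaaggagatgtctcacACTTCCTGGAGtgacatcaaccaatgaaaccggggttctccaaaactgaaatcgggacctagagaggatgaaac
Slfn2: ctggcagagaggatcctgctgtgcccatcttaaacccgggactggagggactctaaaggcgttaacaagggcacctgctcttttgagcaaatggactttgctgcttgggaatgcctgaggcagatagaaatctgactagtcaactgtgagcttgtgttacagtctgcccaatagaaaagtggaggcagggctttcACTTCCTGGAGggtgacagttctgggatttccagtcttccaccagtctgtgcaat
Slfn4: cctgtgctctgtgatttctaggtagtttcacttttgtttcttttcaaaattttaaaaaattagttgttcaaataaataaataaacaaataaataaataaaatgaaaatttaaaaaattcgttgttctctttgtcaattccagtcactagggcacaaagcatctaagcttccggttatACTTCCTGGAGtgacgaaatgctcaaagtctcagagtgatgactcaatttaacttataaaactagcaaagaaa

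Slfn1 and Slfn4 were alike over 15 letters around the run, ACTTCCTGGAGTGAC, and Slfn1 and Slfn2 over 12, CACTTCCTGGAG. On either strand, the 11-letter run was found in 24 of all 32851 windows (0.0731%), which belong to 24 genes. It was found by reading these sequences, so its rarity was not tested. It was not in the windows of Slfn5, Slfn3, Slfn8, Slfn9 or Slfn14. The run holds the letters CTTCC, which read GGAAG on the other strand and are part of sites bound by ETS factors. These 5 letters alone stood in 71.4% of all windows.

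Both strands were also searched for the interferon-stimulated response element, taken as TTTC, any 2 letters and TTTC again (GAAA, any 2 letters and GAAA on the other strand), and for the gamma-activated site TTCNNNGAA. The response element stood in 3.44% of all windows and the gamma-activated site in 8.30%. Neither stood in the windows of Slfn1, Slfn2 or Slfn4, which says only that these letters were not in these 300 bases. The Slfn5 window held GAAAAAGAAA, 155 bases before the start. Outside the 4 genes, Slfn8 and Slfn9 held TTTCGTTTTC 48 and 45 bases before the start. The last 100 bases before their starts are shown with the match in capitals, because these neighbouring genes share the match and had different expression values. Both read on the minus strand, at chr11:83020811-83020910 for Slfn8 and chr11:82991831-82991930 for Slfn9.
Slfn8: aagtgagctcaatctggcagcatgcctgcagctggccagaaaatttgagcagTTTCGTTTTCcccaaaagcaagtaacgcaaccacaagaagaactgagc
Slfn9: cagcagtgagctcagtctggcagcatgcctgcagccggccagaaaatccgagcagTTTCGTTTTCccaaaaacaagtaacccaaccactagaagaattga

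Slfn1 was the member with the largest changes. Its intensity was 1450 and 1044 in the BTNL2 wells, 135 and 136 in the B7-2 wells, and 1372 and 1298 in the anti-CD3 wells. The B7-2 wells stood far below all other arrays, and the BTNL2 and anti-CD3 wells overlapped. In BTNL2 wells Slfn1 was 9.07-fold higher than in B7-2 wells, a log2 change of 3.18 ± 0.15 (SE; 95% interval 2.82 to 3.54; n = 2 each; limma adjusted p = 3.24e-05). Ranked from the highest change, it was number 52 of 45037 tested probe sets. B7-2 wells were 9.84-fold lower than anti-CD3 wells, a log2 change of -3.30 ± 0.15 (-3.66 to -2.94; limma adjusted p = 0.000126), which was number 5 from the lowest. Bulk RNA does not show whether fewer cells carried Slfn1 RNA or each cell carried less.

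Slfn1 in BTNL2 wells was not told apart from its level in anti-CD3 wells. The mean was 1247 ± 287 in BTNL2 wells and 1335 ± 52.4 in anti-CD3 wells (SD, n = 2 each), a log2 change of -0.12 with a 95% interval of -0.48 to 0.24 (limma adjusted p = 0.683). Leaving out the BTNL2 array of 1044 turned that difference to 0.12 (limma adjusted p = 0.588). From highest to lowest the order was anti-CD3, BTNL2 and B7-2, and only the B7-2 level differed from its neighbour beyond the spread.

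Slfn2, the gene that mouse T cells need to stay quiescent, followed the same order with smaller steps. Its intensity was 988 and 904 in BTNL2 wells, 621 and 594 in B7-2 wells, and 1094 and 1121 in anti-CD3 wells. The 3 groups did not overlap. BTNL2 wells were 1.56-fold higher than B7-2 wells (log2 change 0.64 ± 0.10, 95% interval 0.41 to 0.87; limma adjusted p = 0.00531), and B7-2 wells were 1.82-fold lower than anti-CD3 wells (log2 change -0.87 ± 0.10, -1.10 to -0.64; limma adjusted p = 0.00155). BTNL2 against anti-CD3 wells gave a log2 change of -0.23 ± 0.10 with an interval of -0.46 to 0.0014, which did not pass the threshold (limma adjusted p = 0.157). That last difference did pass when the variance prior followed intensity (adjusted p = 0.0240) and with 16 added to the intensities (adjusted p = 0.0384).

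Slfn4, known in mice from myeloid cells, was dim in every well. Intensities were 8.89 and 8.31 in BTNL2 wells, 6.87 and 8.03 in B7-2 wells, and 8.18 and 7.96 in anti-CD3 wells. All lay below the arrays' median and above their highest nonspecific control, and the B7-2 wells overlapped the anti-CD3 wells. No comparison passed the test. The log2 change was 0.21 (95% interval -0.050 to 0.47) for BTNL2 against B7-2 wells, -0.12 (-0.38 to 0.14) for B7-2 against anti-CD3 wells and 0.09 (-0.17 to 0.35) for BTNL2 against anti-CD3 wells. These intervals leave out changes of the size seen for Slfn1 on this probe set, whose signal was close to background.

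The 2 probe sets of Slfn5, a long, interferon-inducible member, did not give the same calls. The brighter, 1442640_PM_at, read 26.6 and 16.6 in BTNL2 wells, 10.2 and 11.0 in B7-2 wells, and 14.9 and 14.7 in anti-CD3 wells. No 2 groups overlapped, and the BTNL2 duplicates differed more than those of the other groups. BTNL2 wells were 1.99-fold higher than B7-2 wells (log2 change 0.99 ± 0.20, 95% interval 0.52 to 1.46; limma adjusted p = 0.0170). This call was lost without the B7-2 array of 10.2 (adjusted p = 0.0856) and without that of 11.0 (adjusted p = 0.0597). B7-2 against anti-CD3 wells gave -0.49 ± 0.20 (limma adjusted p = 0.159) and BTNL2 against anti-CD3 wells 0.50 ± 0.20 (adjusted p = 0.129). Without the BTNL2 array of 16.6 the last of these became 0.85 and passed (adjusted p = 0.00667).

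The dimmer Slfn5 probe set, 1458458_PM_at, read 6.99 and 11.2 in BTNL2 wells, 7.02 and 6.06 in B7-2 wells, and 6.43 and 7.68 in anti-CD3 wells. All 3 groups overlapped. Its log2 changes were 0.44 ± 0.22 for BTNL2 against B7-2 wells (limma adjusted p = 0.256), -0.11 ± 0.22 for B7-2 against anti-CD3 wells (0.807) and 0.33 ± 0.22 for BTNL2 against anti-CD3 wells (0.360). Leaving out the BTNL2 array of 6.99 made the first of these 0.77 (adjusted p = 0.0448) and the last 0.67 (adjusted p = 0.0437).

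**Figure D1:**
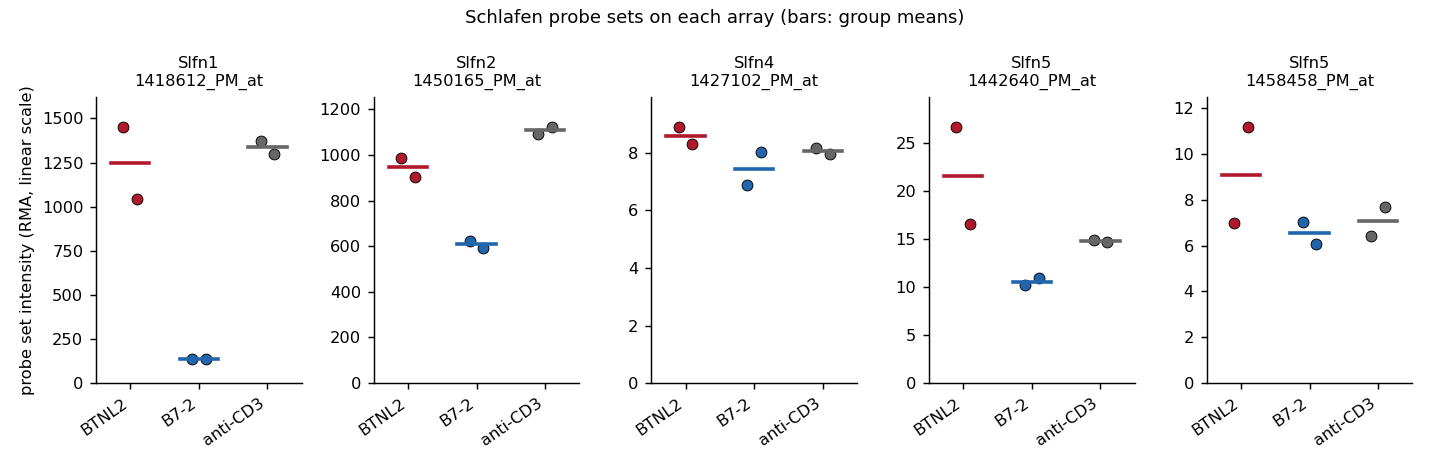
Deposited intensity (linear axis from 0, a scale of its own in each panel) of the 5 probe sets on each array of the BTNL2, B7-2 and anti-CD3 wells. Points are arrays and bars are group means (n = 2 each). Slfn1 is low in both B7-2 wells (135 and 136), Slfn2 is lowest there too, and Slfn4 and the dimmer Slfn5 probe set show no separation that passed the test.

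Counted over the members, 3 of 5 probe sets were higher in BTNL2 than in B7-2 wells and 0 lower, against 13.8% of all 45037 probe sets called, 6.77% higher and 7.04% lower. Of the same 5, 2 were lower in B7-2 than in anti-CD3 wells and 0 higher, where 17.3% of all probe sets were called, 8.78% higher and 8.56% lower. Between BTNL2 and anti-CD3 wells limma called 0 of 5, where 22.2% of all were called, 11.5% higher and 10.7% lower. There, 1 of the 5 had an unadjusted p under 0.05, the brighter Slfn5 probe set, at 0.0391. The first 2 comparisons share the B7-2 arrays, so opposite signs in them are not independent of each other.

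The rest of the family was split. Of 6 other Schlafen genes looked for, 5 had a probe set of their own (Slfn14 was not analysed here). Slfn8, a long member, was the clearest: 345 and 246 in BTNL2 wells, 74.9 and 77.3 in B7-2 wells, and 166 and 165 in anti-CD3 wells. It was 3.83-fold higher in BTNL2 than in B7-2 wells (log2 change 1.94 ± 0.16; limma adjusted p = 0.000270) and 2.17-fold lower in B7-2 than in anti-CD3 wells (-1.12 ± 0.16; 0.00330). It also passed the test between BTNL2 and anti-CD3 wells, 1.76-fold higher (0.82 ± 0.16; adjusted p = 0.00825). Whether Slfn8 differed from Slfn1 and Slfn2 in this was not tested.

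Slfn3, the closest neighbour of Slfn4, had 2 probe sets that disagreed. Set 1421644_PM_at read 63.6 and 80.0 in BTNL2 wells, 50.05 and 41.5 in B7-2 wells, and 54.5 and 46.4 in anti-CD3 wells. Set 1450322_PM_s_at read 88.5 and 107 in BTNL2 wells, 66.1 and 71.5 in B7-2 wells, and 138 and 134 in anti-CD3 wells. Both were higher in BTNL2 than in B7-2 wells (log2 changes 0.65 and 0.50; limma adjusted p = 0.0321 and 0.0311), calls lost without either B7-2 array or without the BTNL2 array of 80.0 and 107 (adjusted p = 0.0502 to 0.151). The second call was also lost with only the arrays of those groups in the fit (0.0555). Against anti-CD3 wells the second was lower in B7-2 wells (-0.99; adjusted p = 0.00192), while the first gave -0.14 (0.621). In BTNL2 against anti-CD3 wells they pointed opposite ways. The second was lower (-0.49; limma adjusted p = 0.0229), a call lost without either anti-CD3 array or without the BTNL2 array of 88.5 (adjusted p = 0.0866 to 0.115). The first gave 0.50 (0.0560), and passed in 4 alternatives, among them a variance prior that followed intensity (0.0299). The s in the second name marks a set whose probes can match more than 1 transcript, so its values are uncertain among these related genes.

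Slfn10-ps, named as a pseudogene, ran the other way. It read 102 and 125 in BTNL2 wells, 192 and 176 in B7-2 wells, and 169 and 190 in anti-CD3 wells. BTNL2 wells lay below both other groups (log2 change -0.71 against B7-2 wells, limma adjusted p = 0.0114, and -0.67 against anti-CD3 wells, 0.00887), while B7-2 and anti-CD3 wells gave 0.04 (0.894). Without the BTNL2 array of 102 both calls were lost (adjusted p = 0.0659 and 0.0516), the first also without the B7-2 array of 192 (0.0687) and the second without the anti-CD3 array of 190 (0.0623). Slfn9, which carries the same response element letters as Slfn8, gave -0.34 (adjusted p = 0.306) for BTNL2 against B7-2 wells and 0.46 (0.145) for B7-2 against anti-CD3 wells. Without the B7-2 array of 22.9 these became -0.63 (0.0433) and 0.75 (0.0221). Slfnl1 on chromosome 4 passed in no comparison (-0.12, -0.19 and -0.31; adjusted p = 0.694, 0.459 and 0.199).

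**Figure D2:**
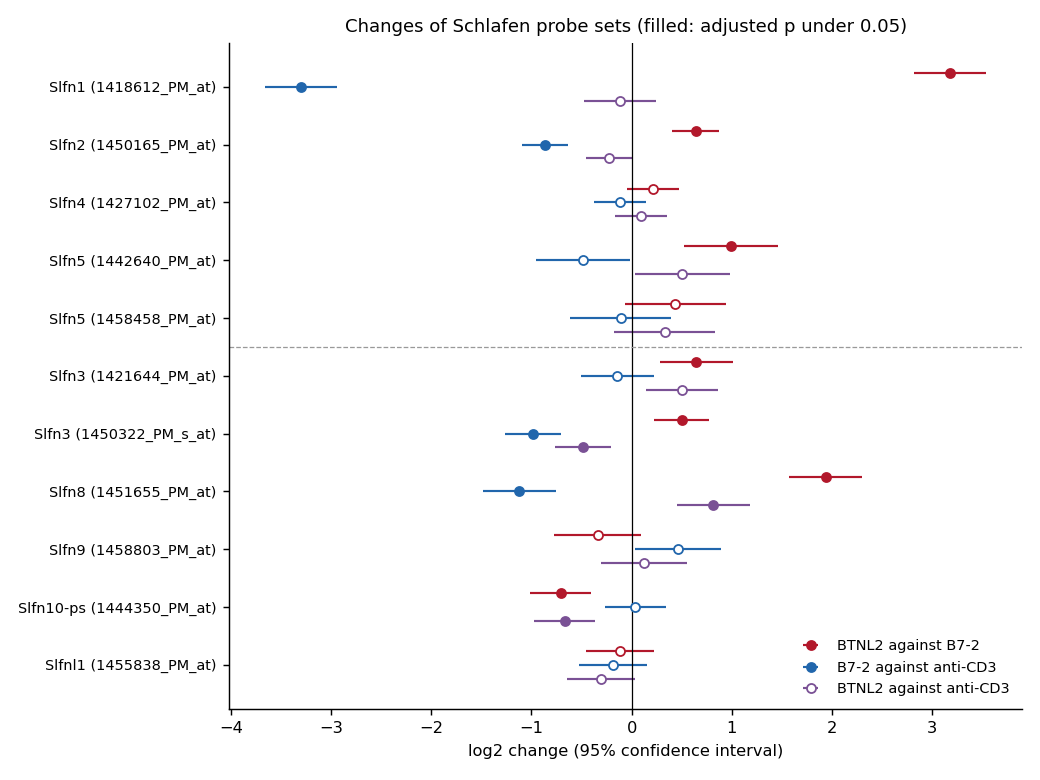
Log2 change with its 95% interval for the 5 member probe sets (above the dashed line) and 6 probe sets of other Schlafen genes (below it), in 3 comparisons. Filled points had an adjusted p under 0.05. Slfn1 (3.18 and -3.30), Slfn2 and Slfn8 have filled points on opposite sides of 0 in the BTNL2 against B7-2 and the B7-2 against anti-CD3 comparisons.

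All but Slfnl1 lie side by side on chromosome 11, in the order Slfn5, Slfn9, Slfn8, Slfn10-ps, Slfn2, Slfn1, Slfn4, Slfn3 and Slfn14. Neighbours differed in the size of change: Slfn1 was 9.07-fold higher in BTNL2 than in B7-2 wells, and Slfn2, on one side of it, 1.56-fold higher. Slfn4, on the other side, gave 1.16-fold without a call, but its signal was close to background, so a change might not be seen. Genes outside the cluster gave no call in that comparison. These were Fndc8 (log2 change -0.04) and Nle1 (-0.26) on one side, and Ap2b1 (-0.30) and Rasl10b (0.12) on the other (limma adjusted p = 0.0964 to 0.874). In B7-2 against anti-CD3 wells Nle1, a ribosome assembly factor, was higher (0.77; adjusted p = 0.00369), opposite in sign to Slfn1 and Slfn2, and the other 3 were not called.

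**Figure D3:**
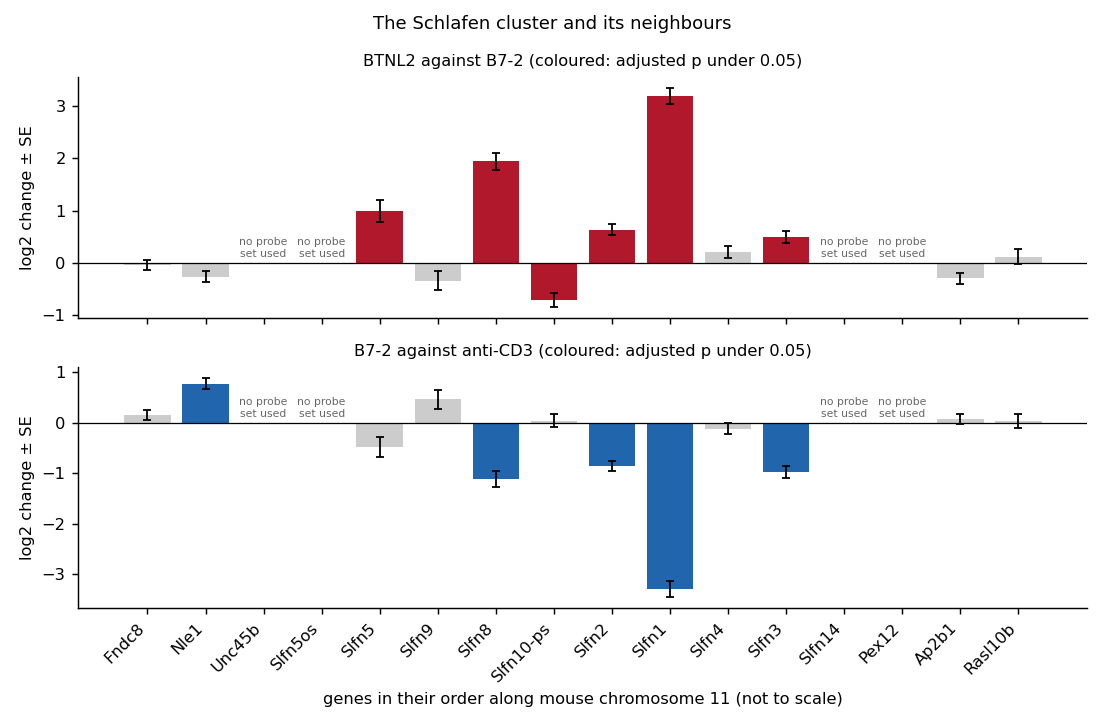
Change of the measured genes in their order along chromosome 11 (equal spacing, not distance), for BTNL2 against B7-2 wells (top) and B7-2 against anti-CD3 wells. Bars are log2 changes, error bars are SE, and grey bars were not called. Slfn8, Slfn2, Slfn1 and Slfn3 are called in both comparisons with opposite signs, and Slfn9 and Slfn4 among them are grey. Slfn3 is drawn by 1450322_PM_s_at, and its other probe set, 1421644_PM_at, was not called in B7-2 against anti-CD3 wells.

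Genes most like each member were taken by Pearson correlation of log2 values over the 6 arrays. The candidates were 1575 or 1576 genes with at least 2-fold between group means and a mean above the median of all probe sets. The 6 points are 3 groups of 2, so a high r mostly says that the 3 group means lie in the same proportions. Closest to Slfn1 were Nt5e (r = 0.999), the CD73 ectoenzyme, and Trib2 (0.998), a pseudokinase, then Cnp (0.997), Dapk2 (0.997) and Irgm2 (0.996). Trib2 changed about as much as Slfn1 itself, by a log2 change of 3.23 in BTNL2 against B7-2 wells and -3.32 in B7-2 against anti-CD3 wells. Nt5e gave 2.23 and -2.27, and the other 3 between 0.98 and 1.07 in the first of these comparisons.

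Closest to Slfn2 were P2ry10 (r = 0.998), Rab37 (0.997), Tmem71 (0.995), the kinase gene Ikbke (0.994) and Ms4a6b (0.994). Their log2 changes were 0.91 to 1.52 in BTNL2 against B7-2 wells and -2.01 to -1.11 in B7-2 against anti-CD3 wells. Slfn2 itself ranged over 0.87 (log2) between its group means, less than the 2-fold asked of the candidates. Genes with changes as small as its own could therefore not be listed. Closest to Slfn5 were Itgae (r = 0.988), the CD103 integrin chain, Ccl20 (0.984), Slc35b4 (0.978), Tbc1d4 (0.972) and Nav2 (0.972). For Slfn4 the values were lower, Mpeg1 (0.965), Ppp1r3f (0.912), Bach1 (0.907), Cxxc5 (0.906) and Klf2 (0.890), and rest on a range of only 0.21 (log2) between its group means.

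Other genes that hold T cells in a resting state were called in part. Of 17 measured quiescence regulators, 4 were higher and 1 lower in BTNL2 than in B7-2 wells, where 17.5% of all genes were called, 8.12% higher and 9.36% lower. Their median log2 change was 0.18, against -0.011 over all genes. Foxp1, a transcription factor that keeps naive T cells quiescent, stood at 2972 ± 392 in BTNL2 wells, 1293 ± 32.1 in B7-2 wells and 1960 ± 26.5 in anti-CD3 wells (SD, n = 2 each). It was 2.29-fold higher in BTNL2 than in B7-2 wells (limma adjusted p = 0.000608). Klf2, a factor of naive T cell trafficking and quiescence, was 2.08-fold higher (54.5 ± 1.36 in BTNL2 wells and 26.5 ± 5.24 in B7-2 wells; adjusted p = 0.00302), and Vsir, which encodes the inhibitory receptor VISTA, 1.71-fold (adjusted p = 0.0127). Foxo1, which drives genes of the resting state, gave 0.18 (adjusted p = 0.582). The lower one was Tob1 (-0.68, limma adjusted p = 0.0180), named after its value was seen. The count of 5 was 2 without the second B7-2 array and 3 without the first BTNL2 array, and 10 when the variance prior followed intensity.

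In B7-2 against anti-CD3 wells, 0 of the 17 were higher and 7 lower, with a median of -0.33, against a median of -0.005 over all genes, of which 21.4% were called, 9.63% higher and 11.8% lower. Foxp1 (-0.60; limma adjusted p = 0.0116) and Vsir (-1.16; 0.00234) were among the 7, and Klf2 was not (-0.41; 0.104). The 7 became 3 without either anti-CD3 array or without the first B7-2 array. Foxp1 and Klf2 were also higher in BTNL2 than in anti-CD3 wells (0.59 and 0.65; limma adjusted p = 0.00881 and 0.0158), where Slfn1 gave -0.12. In that comparison 2 of the 17 were higher and 5 lower, where 27.4% of all genes were called, 12.6% higher and 14.8% lower. The lower 5 were Tob1 (-0.97, limma adjusted p = 0.00239), Bach2 (-0.85, 0.000777), Cdkn1b (-0.50, 0.0360), Satb1 (-0.48, 0.0193) and Ndfip1 (-0.39, 0.0201). These 5 are named after their values were seen. The 7 called were 3 without either anti-CD3 array and 4 without the second BTNL2 array.

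Interferon-stimulated genes were higher in BTNL2 wells, where Slfn1, Slfn2 and the brighter Slfn5 probe set were higher as well. Of 21 measured, 18 were higher and 0 lower than in B7-2 wells, where 8.12% of all genes were higher and 9.36% lower, and their median log2 change was 1.44. Isg20, an exonuclease, averaged 709 ± 32.4 in BTNL2 wells and 50.8 ± 1.93 in B7-2 wells (limma adjusted p = 6.07e-06). Oasl2, of the oligoadenylate synthetase family, was 20.9-fold and Ifit3, an antiviral protein, 28.1-fold higher, and Irf7, a factor that amplifies the interferon response, was 4.75-fold higher (adjusted p = 2.76e-05). In BTNL2 against anti-CD3 wells 16 of the 21 were higher and 1 lower (median 0.77), beside 12.6% of all genes higher and 14.8% lower, where 0 of the 5 member probe sets were called. The contrast between these gene groups was not tested.

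In B7-2 against anti-CD3 wells, 10 of the 21 were lower and 0 higher (median -0.42), beside 11.8% and 9.63% of all genes, and 6 were lower without the second anti-CD3 array. Isg20 was 2.03-fold lower (limma adjusted p = 0.00110) and Irf7 1.67-fold (0.00334), against 9.84-fold for Slfn1. Oasl2 (-0.19, adjusted p = 0.494) and Ifit3 (-0.49, adjusted p = 0.129) were not called. The largest falls of the list were in Usp18 (3.71-fold), Dhx58 (3.15-fold) and Mx1 (2.40-fold), named after their values were seen. Between BTNL2 and anti-CD3 wells Mx1 (-0.05, limma adjusted p = 0.928) and Usp18 (0.36, adjusted p = 0.133) were not called, as Slfn1 was not. Dhx58 was lower there (-0.71, adjusted p = 0.0109). Among genes with the response element letters in their promoter window, 16.8% of the 488 measured were higher in BTNL2 than in B7-2 wells, beside 8.12% of all genes, and 7.99% were lower. Of 16 measured genes with the run shared by Slfn1, Slfn2 and Slfn4, 2 were higher in BTNL2 than in B7-2 wells, which were Slfn1 and Slfn2 themselves. A single one, the transporter gene Slc12a8, was lower (-1.73) and is named here after its value was seen.

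Of 11 measured genes of interferon signalling, 5 were higher and 1 lower in BTNL2 than in B7-2 wells (median 0.41), beside 8.12% and 9.36% of all genes. In B7-2 against anti-CD3 wells 0 were higher and 6 lower (median -0.55), beside 9.63% and 11.8% of all genes. The 6 called in the first comparison were 3 without the first BTNL2 array, and 9 when the variance prior followed intensity. Ifngr1, a chain of the interferon gamma receptor, was 2.10-fold higher in BTNL2 than in B7-2 wells (limma adjusted p = 0.000707) and 1.69-fold lower in B7-2 than in anti-CD3 wells (0.00352). Jak1, a kinase of both interferon receptors, gave 0.74 and -0.77 in these comparisons and -0.03 (0.893) between BTNL2 and anti-CD3 wells. That is the same order of groups as Slfn1, but only by its brightest probe set. Of its 3 probe sets, 2 were called higher in the first comparison and 1 lower in the second. Between BTNL2 and anti-CD3 wells 1 of the 3 was called higher. Jak2, the kinase that serves the interferon gamma receptor, was lower in BTNL2 than in B7-2 wells (-0.61; 0.00520). Irf9, the DNA-binding part of the type I response complex, gave 0.51 (0.0290) and -0.55 (0.0189). Of 5 measured interferon genes only Ifng was called: 2715 ± 262 in BTNL2 wells, 1255 ± 56.0 in B7-2 wells and 264 ± 31.3 in anti-CD3 wells, a different order from that of Slfn1. Ifnb1 was dim in all groups (11.7, 10.6 and 11.3 in BTNL2, B7-2 and anti-CD3 wells), and Ifna5 averaged 24.6, 21.4 and 22.7 in these wells.

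The number of cell cycle genes called in BTNL2 against B7-2 wells depended on the settings. Of 24 measured, 2 were higher and 0 lower (median log2 change 0.12), beside 8.12% of all genes higher and 9.36% lower. They were Plk1 (0.40; limma adjusted p = 0.0350) and Top2a (0.36; 0.0423), a mitotic kinase and a topoisomerase of dividing cells. Leaving out any 1 of the 4 arrays compared left 0, as did a fit of those 4 arrays alone. With 16 added to the intensities 5 were called, and 7 when the variance prior followed intensity. Ccnd1, the cyclin D1 gene, gave 0.42 (0.0584) by its brightest probe set, while 1 of its 3 probe sets was called lower. In B7-2 against anti-CD3 wells 10 were higher and 0 lower (median 0.26), beside 9.63% of all genes higher and 11.8% lower. The 10 were 2 to 5 with 1 of the 4 arrays left out, and 16 when the variance prior followed intensity. In BTNL2 against anti-CD3 wells, where Slfn1 and Slfn2 were not called, 14 were higher and 0 lower (median 0.37), beside 12.6% of all genes higher and 14.8% lower. Those 14 were 9 and 8 without the first and the second anti-CD3 array, and 8 without the second BTNL2 array.

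**Figure D4:**
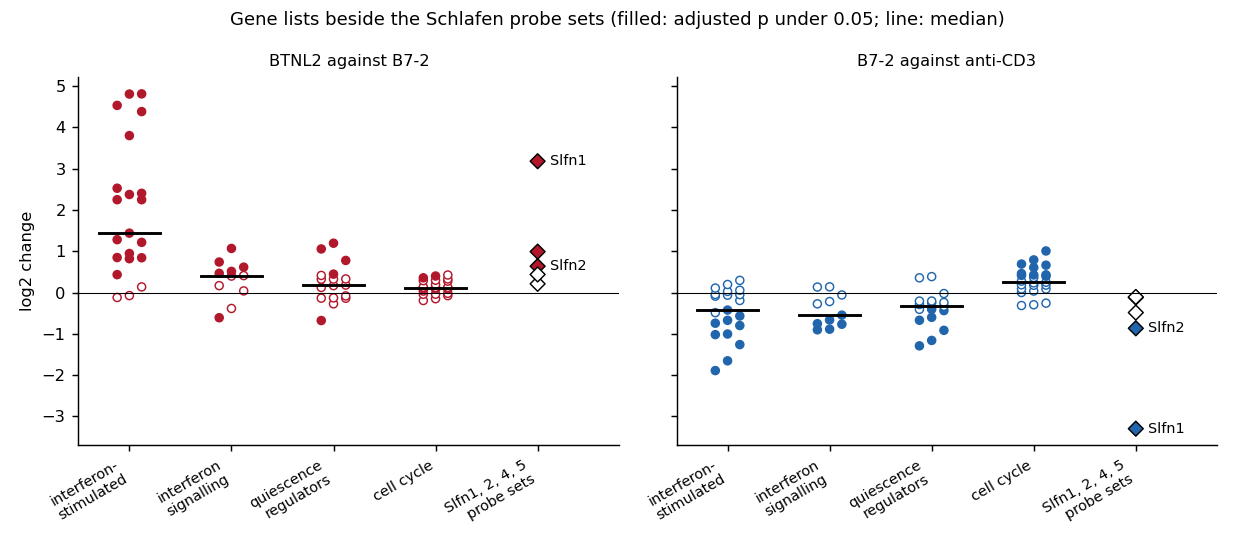
Log2 change of every measured gene of the interferon-stimulated, interferon signalling, quiescence and cell cycle lists and of the 5 member probe sets, in BTNL2 against B7-2 wells and B7-2 against anti-CD3 wells. Points are genes, diamonds are probe sets, filled where the adjusted p was under 0.05, and lines are list medians. Most interferon-stimulated genes lie above 0 in the first comparison (18 of 21 called higher), and Slfn1 is the member probe set farthest from 0 in both.

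Some markers of other cell types differed between the groups along with these genes. Of all genes, 8.12% were higher and 9.36% lower in BTNL2 than in B7-2 wells. The summed intensity of 9 CD8 T cell and NK cell markers was 6223 to 6959 in BTNL2 wells, 3219 to 3235 in B7-2 wells and 3657 to 3773 in anti-CD3 wells, and 6 of 9 were higher and 0 lower in BTNL2 than in B7-2 wells. The cells had been selected with CD4 beads. Cd8a was 8.48-fold higher in BTNL2 than in B7-2 wells (955 ± 44.1 in BTNL2 wells and 113 ± 8.78 in B7-2 wells; limma adjusted p = 1.14e-05). It was 2.76-fold lower in B7-2 than in anti-CD3 wells, and in these 2 comparisons had the directions of Slfn1. Unlike Slfn1, Cd8a was also called between BTNL2 and anti-CD3 wells, 3.07-fold higher in BTNL2 wells (limma adjusted p = 7.85e-05). Eomes, a factor of cytotoxic cells, and the granule gene Nkg7 were 63.8-fold and 1.35-fold higher in BTNL2 than in B7-2 wells. The 9 B cell markers summed to 782 to 1012 in BTNL2 wells, 547 to 584 in B7-2 wells and 921 to 985 in anti-CD3 wells, lowest in B7-2 wells as Slfn1 was. Of these 9, 3 were higher and 1 lower in BTNL2 than in B7-2 wells, with Ms4a1 and Cd79b at 3.40-fold and 1.88-fold higher. The lower one was Ebf1, an early B cell factor, at 55.6 ± 8.38 in BTNL2 wells and 150 ± 16.4 in B7-2 wells (2.70-fold; limma adjusted p = 0.000542). Without Ms4a1 the sum of the other 8 was 502 to 628 in BTNL2 wells, 449 to 488 in B7-2 wells and 793 to 852 in anti-CD3 wells. Pax5, of the same list, was dim in all wells and called in no comparison. It averaged 6.9 in BTNL2 wells, 7.7 in B7-2 wells and 7.4 in anti-CD3 wells, and is named after its value was seen.

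The 14 macrophage, monocyte and neutrophil markers summed to 357 to 360 in BTNL2 wells, 257 to 261 in B7-2 wells and 301 to 323 in anti-CD3 wells. Of the 14, 3 were higher and 1 lower in BTNL2 than in B7-2 wells, and those 4 were 2 without the first B7-2 array. Fcer1g was 3.20-fold and Cybb 1.75-fold higher, and Cd68 1.54-fold lower. The higher sum in BTNL2 wells rests on Fcer1g: the other 13 summed to 203 to 212 in BTNL2 wells, 209 to 214 in B7-2 wells and 252 to 275 in anti-CD3 wells. The defining genes Lyz2 (11.1 in BTNL2 wells, 7.56 in B7-2 wells and 7.84 in anti-CD3 wells), Adgre1 (8.54, 8.57 and 8.10) and Itgam (6.38, 7.83 and 7.08) were dim in all wells. The 5 dendritic cell markers summed to 69.2 to 73.1 in BTNL2 wells, 58.0 to 64.8 in B7-2 wells and 68.7 to 70.6 in anti-CD3 wells, with 1, Zbtb46, called higher in BTNL2 than in B7-2 wells (1.57-fold), 0 without the second B7-2 or the second BTNL2 array. No marker of any list lay below the highest nonspecific control on all arrays. The 10 T cell markers summed to 19808 to 19961 in BTNL2 wells, 18952 to 19275 in B7-2 wells and 22891 to 23307 in anti-CD3 wells. Of these 10, 2 were higher and 2 lower in BTNL2 than in B7-2 wells, 2 in all without any 1 of the 4 arrays. The higher 2 were Thy1 (1.28-fold; limma adjusted p = 0.0451) and Lat (1.32-fold; 0.0285). The lower 2 were Cd5 (2.01-fold) and the costimulatory receptor gene Cd28 (1.68-fold). Lat, Cd5 and Cd28 are named after their values were seen. Cd3e, another CD3 chain, was not called (1.09-fold higher; 0.556). In BTNL2 against anti-CD3 wells 2 of the 10 were higher and 5 lower, beside 12.6% of all genes higher and 14.8% lower. Fewer were called with any 1 of the 4 arrays of that comparison left out. The part of these markers in the values of Slfn1, Slfn2, Slfn5 and Slfn8 was not tested.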

How the data were processed

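Total RNA (50 ng a culture, per the labels' protocols) was amplified with a NuGen kit and hybridised to 6 one-colour arrays. The authors deposited probe set intensity values on a linear scale, made with RMA per the submitters' processing notes. Its version, like the chip definition, is not given in the sources used here. RMA equalises the arrays' distributions and would hide a change that most transcripts share. The design had foreseen log2 values, and the deposited intensities were log2 transformed with nothing added.

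Of 45141 probe sets, 104 were controls and 45037 were tested. By the platform annotation 28898 had 1 symbol, 551 several and 15588 none. Symbols were updated by Entrez identifier for 28689 with the GRCm38.p6 table. A listed gene was represented by its probe set of highest mean (17097 genes, no filter on dim ones), and its adjusted p is that over the 45037.

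All 6 arrays entered 1 limma fit (limma 3.58.1, R 4.3.3; 3 residual and 4.44 prior degrees of freedom, no block). Probe sets were called at an adjusted p under 0.05 (Benjamini-Hochberg over the 45037, two-sided). Unadjusted, 11854, 13179 and 14615 probe sets had p under 0.05 for BTNL2 against B7-2, B7-2 against anti-CD3 and BTNL2 against anti-CD3 wells. The number of arrays limits the precision. Same-numbered cultures did not deviate together (r = -0.013, -0.038 and -0.012), and the labels tie them by number only.

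The genes and the lists were chosen with earlier results of these data known. Named were every Schlafen probe set, the 5 genes most like each member, from each list the 3 genes of smallest p in BTNL2 against B7-2 wells, with Klf2, Foxo1, Ccnd1, Irf7 and Irf9, and the 3 brightest markers of each list. The levels of Lyz2, Adgre1 and Itgam were added because they define myeloid cells. Flt3 and Itgax, of the dendritic list, were called in no comparison. Promoter windows were those of 32851 RefSeq transcript starts of 27025 genes. The fit was run on simulated data with independent noise on each probe set and array. That cannot show how calls from possibly technical duplicates behave. In all, 16 alternative settings were tried, covering the variance prior, the arrays in the fit, dim probe sets, scaling, probe sets per gene, a replicate block, an added 16 and each array left out.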

Additional observations from a re-analysis of the deposited data

How the results depend on the processing

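Slfn1, Slfn2 and Slfn8 kept direction and call in BTNL2 against B7-2 and in B7-2 against anti-CD3 wells under all 14 alternatives of each comparison (highest limma adjusted p = 0.0399, for Slfn2). The number of called probe sets was 6222, 7809 and 10010 in BTNL2 against B7-2, B7-2 against anti-CD3 and BTNL2 against anti-CD3 wells. It was 3488, 4189 and 5202 with 1 probe set per gene, and 3446, 4068 and 5137 with a gene's probe sets averaged, since fewer features were tested. With 1 array left out, the lone array then being assumed to vary like the other groups, it was 3333 to 4588, 4202 to 4712 and 6678 to 7531, since fewer samples entered. With the replicate number as a block the counts were 5691, 7143 and 9346, and the block changed no call of a member. In BTNL2 against anti-CD3 wells Slfn2 was called with an intensity trend (-0.23) and with 16 added (-0.23). Slfn5 (1442640_PM_at) was called in B7-2 against anti-CD3 wells with only those arrays (-0.49; adjusted p = 0.0225) and with its probe sets averaged (-0.30; 0.0400), and in BTNL2 against anti-CD3 wells averaged (0.42; 0.00802). With 1 array left out, its change was 0.65 to 1.33 in BTNL2 against B7-2 wells and 0.16 to 0.85 in BTNL2 against anti-CD3 wells. The dimmer Slfn5 probe set ranged over 0.10 to 0.77, -0.24 to 0.021 and -0.0077 to 0.67 in BTNL2 against B7-2, B7-2 against anti-CD3 and BTNL2 against anti-CD3 wells, and Slfn1 over -0.35 to 0.12 in the last. Signs also turned for Slfnl1 in BTNL2 against B7-2 wells (0.036, range -0.27 to 0.036) and Slfn10-ps in B7-2 against anti-CD3 wells (-0.045 and -0.023, range -0.045 to 0.12), neither of them called. Slfn3 (1450322_PM_s_at), called lower in BTNL2 against anti-CD3 wells (-0.49; adjusted p = 0.0229), gave 0.0085 with its probe sets averaged, which combines 2 sets of opposite sign. The cause of the other changes was not tested. Leaving out dim probe sets gave no value for Slfn4 and the dimmer Slfn5 set, and settings with 1 value per gene gave none for the dimmer sets of Slfn5 and Slfn3. With 2 arrays a group and signal close to the nonspecific controls, changes of Slfn4 and of the dimmer Slfn5 probe set may not be detectable. The brighter Slfn5 probe set stood farther above those controls, but with 2 arrays a group its smaller changes may be missed as well.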
